A study of Arabidopsis thaliana with 42 samples.

Results

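The nitrate response of roots of Col-0, the Arabidopsis thaliana accession on whose sequence the array was designed, was measured on 6 of the 42 arrays of a study of 7 accessions. The members are the arrays labelled Col0, 3 from roots given 5 mM KNO3 and 3 from roots given 5 mM KCl, each described as a biological replicate. All seedlings had grown for 12 days in liquid medium whose nitrogen came from 0.5 mM ammonium succinate, with 3 mM sucrose, and whole roots were harvested 2 h after the salt was added at dawn. KCl supplies the potassium of KNO3 without nitrate, so the contrast asks which transcripts differ when nitrate is added to ammonium-fed roots.

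Roots take up nitrate through transporters of the NRT1 and NRT2 families, reduce it to nitrite with nitrate reductase in the cytosol, and reduce nitrite to ammonium with nitrite reductase in plastids. The second step draws electrons from ferredoxin, which root plastids reload from NADPH made by the oxidative pentose phosphate pathway. Nitrate itself acts as a signal, and genes for these steps, together with transcription factors that feed back on them, are among the best known early nitrate-induced genes of Arabidopsis roots.

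Each value is a MAS5 signal, a summary of the short oligonucleotides of 1 probe set on a linear scale, and fold changes are log2 differences of signal + 1 between the means of the 3 KNO3 and the 3 KCl arrays. Array medians lay between 108.7 and 116.4. The test took in the 12052 probe sets, of 22746 that are not controls, whose signal averaged 100 or more across these arrays. Arrays correlated with each other at r = 0.861 to 0.944 on the log2 scale across probe sets. The lowest values involved KNO3 replicate 2, which had r = 0.861 to 0.907 with the other arrays. The level of one probe set is not comparable with that of another, so values are compared only between arrays.

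In the genes that nitrate is best known to induce, the library labelled KCl replicate 2 was high for its group. The library labelled KNO3 replicate 1 was low for its group. NIR1, which encodes nitrite reductase, had signals of 1398.2, 9603.0 and 2391.0 on KCl replicates 1, 2 and 3, and of 2658.7, 14363.0 and 8813.1 on KNO3 replicates 1, 2 and 3. The library labelled KCl replicate 2 thus lay above KNO3 replicate 3, and the library labelled KNO3 replicate 1 lay close to KCl replicate 3. NRT2.1, a high-affinity nitrate transporter, had 217.4, 6932.1 and 367.0 on the KCl arrays and 436.3, 10752.2 and 4405.6 on the KNO3 arrays. NIA2, a nitrate reductase, had 2663.7, 5255.9 and 2524.8 against 2177.9, 9884.4 and 5760.1. Between arrays of the same replicate number, NIR1 and NRT2.1 were higher with KNO3 in 3 of 3 pairs and NIA2 in 2 of 3. In all 3 genes the highest KCl array was the one labelled replicate 2 and the lowest KNO3 array the one labelled replicate 1, and the groups overlapped. That order was seen in 11.8% of the 12052 probe sets, and with both arrays at least 2-fold from the other arrays of their group in 73 of them (0.606%). The opposite order at 2-fold or more, with KCl replicate 2 lowest and KNO3 replicate 1 highest, was seen in 18 (0.149%).

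The same libraries also lay close to each other in control probe sets. The dap spike-in, a bacterial RNA added to samples during labelling, had 492.7 on KCl replicate 2 and 512.8 on KNO3 replicate 1, and 119.6, 1928.7, 2999.2 and 2246.6 on KCl replicates 1 and 3 and KNO3 replicates 2 and 3. Signals of cre, a hybridisation control, were 14910.0 and 13849.9 on the same pair of arrays and 22917.4 to 28412.4 on the other 4. The probe set for 25S ribosomal RNA read 210.7 and 196.3 on them and 385.4 to 4418.0 on the others. The log2 ratio of 3′ to 5′ signal of the actin, GAPDH and ubiquitin controls, a measure of RNA integrity, was 1.54 on KCl replicate 2 and 1.7 on KNO3 replicate 1, inside the range of the other 4 (1.42 to 2.22). Whether these shared control signals, or differences between replicate numbers, have a part in the order of the nitrate genes was not tested. Groups were kept as labelled throughout. Values without these libraries, on 4 arrays that include KNO3 replicate 2, are given beside those on all 6 arrays. Since the libraries were doubted on the nitrate genes themselves, the values without them are descriptions and lend no support to a response of these genes.

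**Figure D1:**
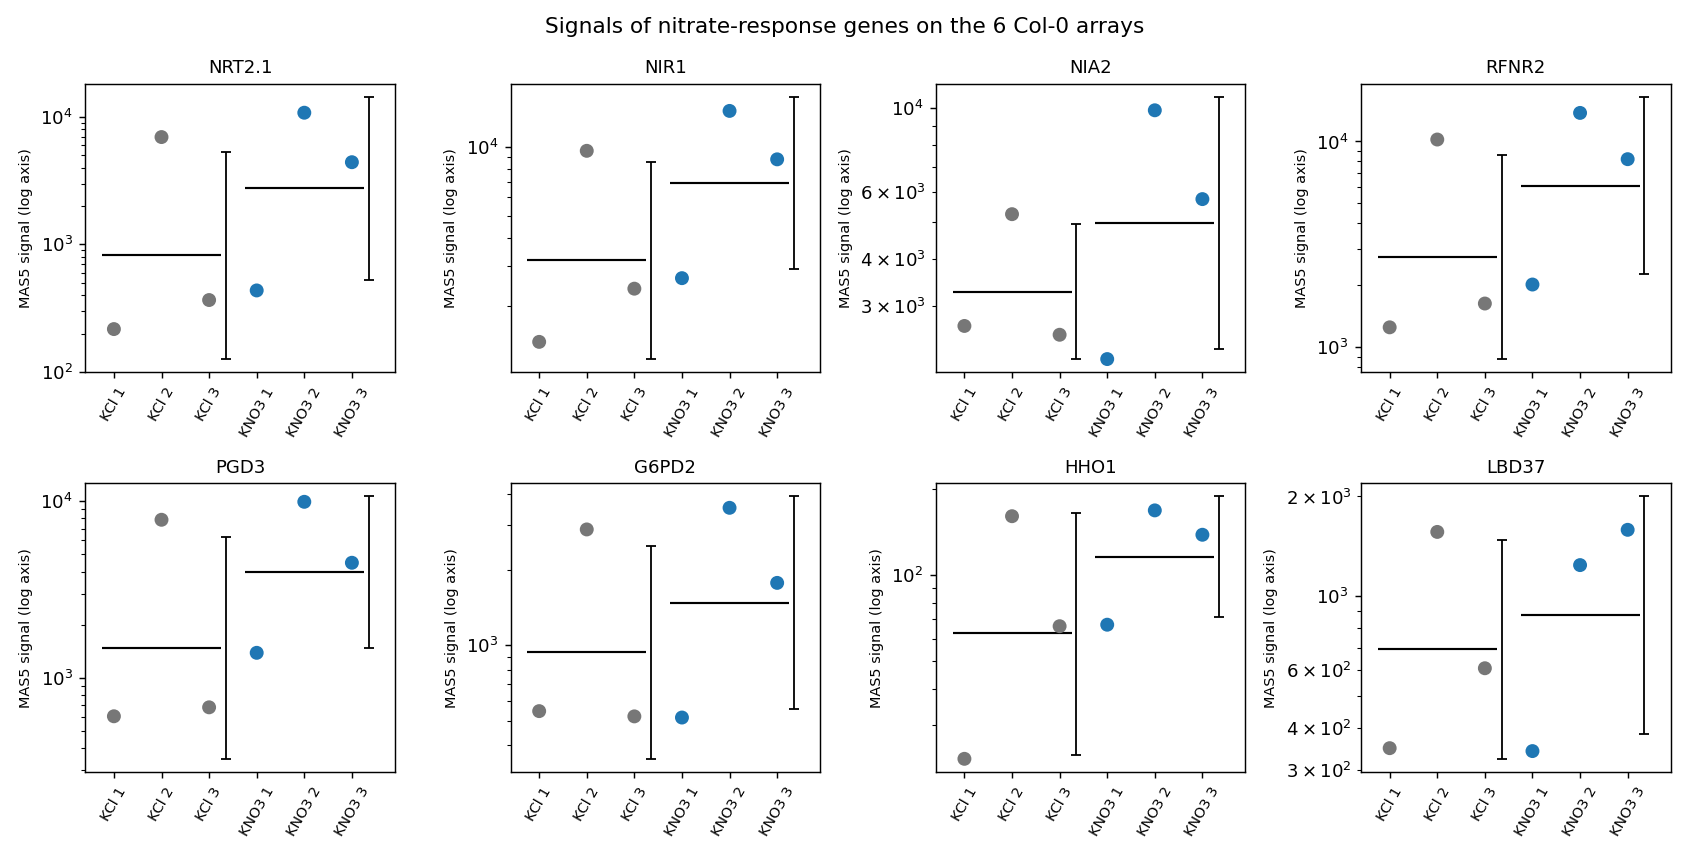
MAS5 signal on a log axis of 8 nitrate-response genes on each Col-0 array (grey points, KCl replicates 1 to 3, blue points, KNO3 replicates 1 to 3). Lines are group means and bars 1 SD, both taken on the log2 scale, n = 3. In each panel the library labelled KCl replicate 2 is the highest of its group, and the library labelled KNO3 replicate 1 is the lowest. The 8 are among the 15 of 33 measured nitrate list genes that have this order. G6PD2 and LBD37 were chosen after their values were seen.

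**Figure D2:**
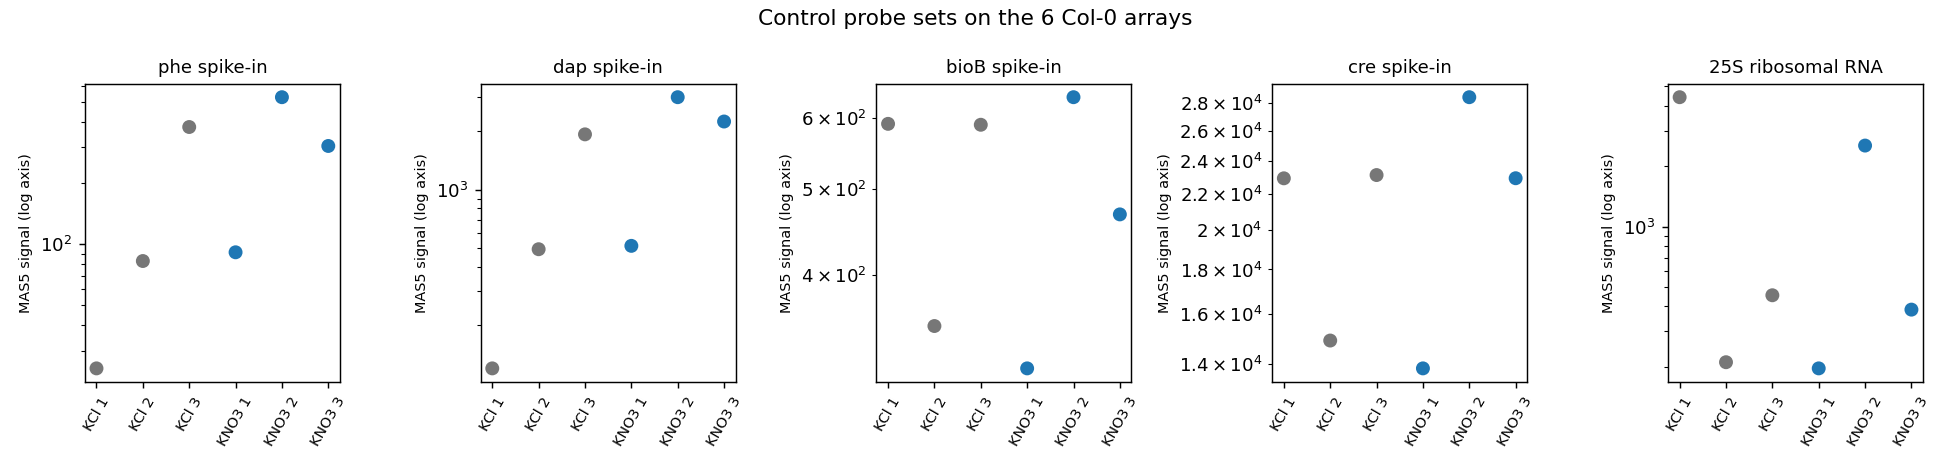
MAS5 signal on a log axis of 4 spike-in controls and of 25S ribosomal RNA on each Col-0 array (grey, KCl, blue, KNO3). KCl replicate 2 and KNO3 replicate 1 lie near each other in every panel, with dap at 492.7 and 512.8.

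As labelled, no probe set passed an adjusted p of 0.1 between KNO3 and KCl in limma (0 of 12052, 0.0%, lowest adjusted p = 0.9996), and 236 (1.96%) had an unadjusted p under 0.05. Signals of the 3 KNO3 arrays all lay above those of the 3 KCl arrays in 403 probe sets (3.34%) and all below in 432 (3.58%). The median log2 fold change over the 12052 was -0.01, and the median SE of a fold change was 0.26. NRT2.1 and NIR1 had fold changes far above that median, 1.74 and 1.13 on the log2 scale, with SEs of 1.33 and 0.72.

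The 10 probe sets with the smallest unadjusted p (0.00246 to 0.00727) did not pass after adjustment, and 9 of them had groups that did not overlap. AT1G19530 was lower with nitrate, at 1366.0, 914.5 and 1181.8 on KCl and 519.9, 346.0 and 720.4 on KNO3 (log2 fold change -1.17, SE 0.29). ELIP2, an early light-induced protein of plastids, had 737.2, 788.7 and 593.8 against 446.4, 398.4 and 363.3 (-0.80, SE 0.21). Every KNO3 array was below every KCl array in both genes. ELF7, a subunit of the PAF1 complex that acts in transcript elongation, had 282.9, 302.3 and 284.7 against 157.5, 120.7 and 205.6 (-0.88, SE 0.25). PERK10, a receptor-like kinase of the proline-rich extensin-like family, was also lower on every KNO3 array than on any KCl array (-1.44, SE 0.40), as were ZIP6 of the ZIP metal transporter family (-0.84, SE 0.25) and AT1G55590 (-0.95, SE 0.28). AT3G28550 was the exception to the separation, since KNO3 replicate 3, at 327.0, exceeded KCl replicate 3, at 315.4 (-1.32, SE 0.38). PPT1, a polyprenyltransferase of ubiquinone synthesis, was the gene of this set with the highest fold change towards nitrate, at 62.8, 57.4 and 77.1 on KCl and 120.6, 154.4 and 167.5 on KNO3 (1.15, SE 0.33). AT3G27100 (0.75, SE 0.21) and 1 probe set that the tables used here pair with no gene (0.88, SE 0.26) were also higher. None of the 10 belongs to a nitrate list, where 33 genes were measured beside 12052 probe sets. In none of the 10 was KCl replicate 2 the highest KCl array together with KNO3 replicate 1 as the lowest KNO3 array, an order seen in 11.8% of all probe sets. With 10 probe sets, neither absence is a result about them. A small p favours groups that do not overlap, so their separation follows in part from how they were chosen.

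Of 124 genes on 5 lists of nitrate transport, reduction, reductant supply, regulation and CC-type glutaredoxins, 50 were named by the tables used here and 33 reached the signal minimum. None of the 33 passed on all 6 arrays. None had an unadjusted p under 0.05, beside 1.96% of all probe sets. None had groups that did not overlap, beside 3.34% of all probe sets above and 3.58% below. With 33 genes, these counts of 0 lie near those shares. Their median log2 fold change was 0.26 beside -0.01 over all probe sets, with 21 of 33 above 0 beside 5917 of 12052. The order of arrays seen in NIR1 was held by 15 of the 33 and by 11.8% of all probe sets. That order was defined on NIR1, NRT2.1 and NIA2, which are among the 33, so the share is a description only. Without the library labelled KCl replicate 2 and the library labelled KNO3 replicate 1 the median was 0.79 beside -0.03. On those 4 arrays 6 of the 33 passed, beside 45 of 12052 (0.373%). The 2 libraries were left out because of genes among the 33, so these values are descriptions as well.

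**Figure D3:**
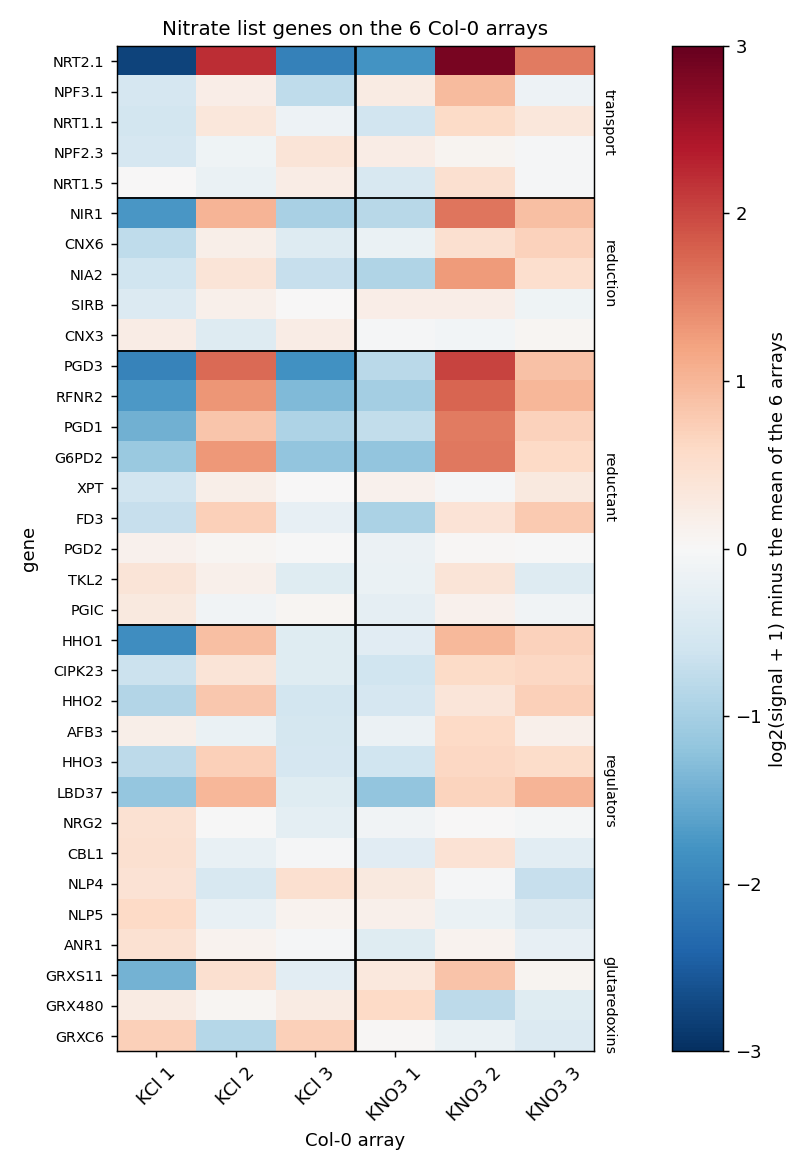
Deviation of log2(signal + 1) from the mean of the 6 Col-0 arrays (colour, red above and blue below) for the 33 nitrate list genes (rows, by list) on each array (columns, KCl replicates 1 to 3 and KNO3 replicates 1 to 3). KCl replicate 2 and KNO3 replicates 2 and 3 are red, and KCl replicates 1 and 3 and KNO3 replicate 1 blue, in NRT2.1, NIR1, NIA2, the pentose phosphate genes PGD1, PGD3 and G6PD2, and HHO1 to HHO3.

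Among the 5 transport genes measured, NRT2.1 had the widest spread. Its fold change of 1.74 on all 6 arrays became 4.60 (SE 0.43) without the 2 libraries. With a single array left out it ran from 0.75, without KNO3 replicate 2, to 3.28, without KCl replicate 2. Within same-numbered pairs NRT2.1 was higher with KNO3 in 3 of 3, by 1.00, 0.63 and 3.58 on the log2 scale, where 12.3% of all probe sets were higher in all 3 pairs and 12.5% lower in all 3. NPF3.1, a member of the NRT1 family that carries nitrite and gibberellin, was also higher in 3 of 3 pairs, at 91.6, 151.1 and 76.7 on KCl and 156.4, 255.4 and 118.1 on KNO3 (0.71, SE 0.37). Its groups overlapped only through KCl replicate 2 against KNO3 replicate 3. NRT1.1, the dual-affinity transporter that also senses nitrate, had 4453.1, 8228.3 and 5867.8 against 4376.3, 9642.0 and 8136.7 (0.23, SE 0.32), and KNO3 replicate 1 was the lowest of all 6.

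The 5 measured genes of nitrate reduction had a median of 0.60 on all 6 arrays and 1.16 without the 2 libraries. NIR1 was higher with KNO3 in 3 of 3 pairs, by 0.93, 0.58 and 1.88, and its fold change went from 1.13 (SE 0.72) to 2.62 (SE 0.35) without them, and to 0.54 without KCl replicate 1 alone. NIA2 went from 0.60 (SE 0.49) to 1.54 (SE 0.32), and was higher with KNO3 in pairs 2 and 3 but not in pair 1 (-0.29). CNX6, an enzyme of the molybdenum cofactor that nitrate reductase carries, had 418.7, 807.8 and 549.3 against 619.5, 996.6 and 1159.3 (0.65, SE 0.31). Its signals were higher with KNO3 in 3 of 3 pairs, and the only overlap came from KCl replicate 2 over KNO3 replicate 1.

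Reductant supply, with 9 genes measured, held 4 of the 6 list genes past the threshold on 4 arrays, where 45 of 12052 probe sets (0.373%) passed. None of the 9 passed on all 6 arrays, and the counts on 4 arrays are descriptions, as said above. RFNR2, a root ferredoxin-NADP reductase, had 1250.7, 10221.0 and 1632.2 on KCl and 2018.7, 13764.8 and 8204.1 on KNO3 (1.15, SE 0.82, and 2.89, SE 0.33, without the 2 libraries). PGD3, a 6-phosphogluconate dehydrogenase, had 607.4, 7850.7 and 682.5 against 1387.9, 9919.1 and 4484.7 (1.41, SE 0.95, and 3.37, SE 0.38). PGD1, of the same enzyme family, had 1694.1, 8189.0 and 2391.4 against 2760.8, 13591.7 and 7398.8 (1.02, SE 0.64, and 2.32, SE 0.35). All 3 genes were higher with KNO3 in 3 of 3 pairs although their groups overlapped. Without KNO3 replicate 2 alone, their fold changes were 0.56, 0.75 and 0.49. G6PD2, a plastid glucose-6-phosphate dehydrogenase, had 546.3, 2889.1 and 520.6 against 515.1, 3522.6 and 1770.0, so that KNO3 replicate 1 was the lowest of all (0.65, SE 0.75, and 2.23, SE 0.36). FD3, a ferredoxin of roots, had 5803.8, 15217.4 and 7813.5 against 4839.9, 12309.4 and 16034.9 (0.16, SE 0.46, and 1.06, SE 0.29), a fold change that turned to -0.03 when the arrays were quantile normalized. XPT, a plastid xylulose phosphate translocator, differed less among arrays, from 197.5 to 364.3 (0.26, SE 0.25). G6PD2 and FD3 were named after their values were seen.

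Of 11 regulators measured, 6 had a fold change above 0 and 5 had the order of arrays of NIR1, beside 5917 and 1417 of 12052 probe sets. These 5, HHO1, HHO2, HHO3, LBD37 and CIPK23, were the only regulators with that order, and all but HHO1 were named after their values were seen. HHO1, HHO2 and HHO3 are GARP-type repressors that act on nitrate uptake genes, and HHO1 had 22.8, 160.7 and 66.3 on KCl and 67.1, 168.4 and 138.4 on KNO3 (0.88, SE 0.67, and 1.94, SE 0.65, without the 2 libraries). HHO2 had 187.6, 606.5 and 235.4 against 243.9, 444.7 and 569.8 (0.40, SE 0.44, and 1.26, SE 0.30). HHO3 had 335.2, 950.6 and 409.6 against 381.7, 885.7 and 840.2 (0.37, SE 0.43, and 1.22, SE 0.29). In HHO2 and HHO3 the library labelled KCl replicate 2 was the highest of all 6. LBD37, a repressor of nitrogen-responsive genes, had 348.3, 1563.5 and 606.7 against 341.3, 1241.8 and 1586.5 (0.34, SE 0.62, and 1.61, SE 0.34). CIPK23, the kinase that phosphorylates NRT1.1, had 791.3, 1624.7 and 959.4 against 810.9, 1838.2 and 1911.0 (0.40, SE 0.37, and 1.1, SE 0.28). None of the 5 passed on 6 or on 4 arrays. ANR1, a MADS-box factor of lateral root growth in nitrate, had values between 166.4 and 293.8 (-0.35, SE 0.24), and the auxin receptor AFB3 had values between 274.5 and 598.8 (0.38, SE 0.27). NLP5, of the NIN-like family that holds the nitrate sensor NLP7, was 256.0, 144.2 and 182.1 on KCl and 188.9, 147.1 and 125.3 on KNO3 (-0.31, SE 0.29).

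Only 3 of the 16 named CC-type glutaredoxins, small redox proteins of which several respond to nitrate, reached the signal minimum. GRXS11 had 50.3, 191.3 and 109.3 on KCl and 171.0, 249.1 and 145.4 on KNO3 (0.84, SE 0.45) and was higher with KNO3 in 3 of 3 pairs. GRX480 (-0.37, SE 0.33) and GRXC6 (-0.38, SE 0.39) were lower on average. GRXC6 read 499.1 and 496.5 on KCl replicates 1 and 3 but 167.1 on KCl replicate 2, the lowest of the 6 arrays.

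In nitrogen metabolism beyond nitrite, 5 of 31 list genes were measured. Beside 1.96% of all probe sets, 1 of the 5 had an unadjusted p under 0.05. This was GLB1, the plastid PII protein, a sensor of carbon and nitrogen status, at 138.9, 244.8 and 175.5 on KCl and 278.0, 415.4 and 241.2 on KNO3 (0.74, SE 0.29), and it did not pass after adjustment. It was higher with KNO3 in 3 of 3 pairs, and only KNO3 replicate 3 lay below KCl replicate 2. ASP2, a cytosolic aspartate aminotransferase, had 4047.9, 4492.4 and 2464.4 against 2276.3, 3416.9 and 2300.6 (-0.44, SE 0.28) and was lower with KNO3 in each pair.

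Hormone genes known to follow nitrate were measured in part, 4 for cytokinin and 7 for auxin and lateral roots. Of the 4 for cytokinin 3 had a fold change above 0 (median 0.43), and of the 7 others 5 had (median 0.16). Over all probe sets 5917 of 12052 were above 0. Those named next had the smallest unadjusted p of their lists. ARR6, a type-A response regulator induced by cytokinin, had 99.0, 229.2 and 132.3 on KCl and 198.4, 361.5 and 206.3 on KNO3 (0.76, SE 0.36). ABCG14, which exports cytokinin from the root to the shoot, had 544.5, 663.8 and 433.7 against 626.4, 1126.8 and 716.2 (0.56, SE 0.27). In both genes each KNO3 array exceeded its same-numbered KCl array, and KCl replicate 2 exceeded KNO3 replicate 1. LAX3, an auxin influx carrier that acts where lateral roots emerge, had 995.6, 1133.4 and 973.4 against 1210.7, 1621.2 and 1424.2 (0.45, SE 0.20). Its groups did not overlap, and it did not pass the test.

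Lists further from nitrate held no call either. Iron homeostasis had a median of -0.31 over 5 genes, with OPT3, a phloem iron transporter, between 63.6 and 187.5 (-0.61, SE 0.35). Genes known to mark low carbon or nitrogen had a median of -0.10 over 7, with DRM1 highest on both replicate 3 arrays of their groups, at 1126.4 in KCl and 589.1 in KNO3. SULTR1;2, a sulfate uptake transporter, had the order of arrays of NIR1, at 1195.7, 2828.8 and 1468.1 against 1216.4, 4196.0 and 2418.5 (0.44, SE 0.44, and 1.27, SE 0.33, without the 2 libraries). The medians were 0.12 for 7 ribosome biogenesis genes, all of them above 0 beside 5917 of 12052 probe sets, and -0.10 for 3 clock genes. UBQ14 (0.13, SE 0.22) and PhzC (0.17, SE 0.25) were the remaining measured genes of the list drawn from the study's text.

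Markers of other tissue and of stress differed between arrays of one treatment. The summed signal of 7 shoot photosynthesis genes was 2124, 2177 and 6259 on KCl and 3445, 1394 and 6393 on KNO3, so that both replicate 3 arrays were high, and LHCB4.2, a light-harvesting protein, ran from 18.1 on KNO3 replicate 2 to 630.5 on KCl replicate 3. No marker of the 7 had groups that did not overlap, beside 3.34% of all probe sets above and 3.58% below. With 7 genes, that count of 0 lies near those shares. PRK, a Calvin cycle kinase, had the smallest p among them (0.67, SE 0.41). Whether more leaf tissue and more transcript per cell set these sums cannot be told apart in whole-root RNA. Of 24 root cell type markers 3 were named and measured. The endodermal and epidermal β-glucosidase PYK10 had 3726.9 to 7896.2, and the root hair expansins EXPA18 and EXPA7 had 158.3 to 273.0 and 83.8 to 197.0. The part of these tissues in the results was not tested.

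Heat and touch genes had fold changes below 0 in all 6 measured, as did 6135 of the 12052 probe sets, and none passed. Their median of -0.54 shrank to -0.12 without the 2 libraries. HSP101, a heat-shock chaperone, had 334.3, 1925.7 and 777.8 on KCl and 153.1, 714.9 and 485.2 on KNO3, and HSFA2, a heat-shock factor, had 75.1, 327.7 and 217.2 against 21.7, 197.1 and 165.0. Both were highest on KCl replicate 2 and lowest on KNO3 replicate 1. Their fold changes of -1.08 (SE 0.66) and -0.96 (SE 0.80) became 0.21 and 0.49 without the 2 libraries. WRKY40, a factor induced by wounding and pathogens, had 138.6 to 161.5 on KCl and 63.2 to 145.2 on KNO3 (-0.69, SE 0.36).

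Leaving out the 2 libraries gave 45 probe sets past an adjusted p of 0.1, 39 higher (0.324%) and 6 lower (0.0498%) with KNO3, on 4 arrays with 2 residual degrees of freedom before moderation. Of these, 28 are paired with a gene. In 40, both omitted arrays lay at 2-fold or more from the rest of their groups, in the pattern described for NIR1 or its opposite. Those orders were seen in 0.606% and 0.149% of all probe sets. The 2 libraries were picked after such values were seen, and leaving them out lowers the spread of these probe sets. The 45 calls and their SEs are therefore descriptions. Among the 39, MT1C had the lowest log2 fold change, 1.48, and NRT2.1 the highest, 4.60, apart from 1 unnamed probe set. That probe set read 5.0, 364.1 and 1.8 on KCl and 8.2, 668.9 and 283.6 on KNO3, and no fold is given for it, since the KCl signals kept lie far below 100 and its size would be set by the pseudocount. The genes named next were chosen after their values were seen. BCA4, a β-carbonic anhydrase, had 499.8, 4093.3 and 1361.3 against 1391.2, 5003.5 and 3900.9 (2.42, SE 0.43, without the 2 libraries). MDAR6, a monodehydroascorbate reductase, had 1725.4, 7354.8 and 1651.2 against 1959.2, 9400.9 and 5646.3 (2.11, SE 0.31). PGM, a phosphoglycerate mutase-like gene, had 265.4, 1490.8 and 256.1 against 300.3, 2640.4 and 829.6 (2.5, SE 0.47). In these genes KCl replicate 2 was again the highest KCl array. MT1C, a metallothionein, had 3865.4, 13187.3 and 4380.1 against 5888.5, 12758.9 and 10362.1 (1.48, SE 0.27). AT5G10210 (2.99, SE 0.37) and AT1G49500 (3.15, SE 0.42) were higher in the same way.

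The 6 lower probe sets had the opposite order of arrays. OCT1, an organic cation and carnitine transporter, had 2636.0, 220.7 and 1501.3 on KCl and 1428.1, 162.2 and 201.9 on KNO3 (-1.40, SE 0.95, on all 6 arrays and -3.45, SE 0.34, without the 2 libraries). UMAMIT19, of a family of amino acid exporters, had 2488.3, 245.2 and 1644.9 against 2243.7, 273.3 and 212.2 (-0.98, SE 0.97, and -3.07, SE 0.32). SUFE2, an activator of cysteine desulfurase in iron-sulfur cluster assembly, had 615.0, 177.7 and 758.6 against 602.9, 140.7 and 231.0 (-0.69, SE 0.60, and -1.92, SE 0.33). In each of these the library labelled KCl replicate 2 lay near KNO3 replicates 2 and 3, and the library labelled KNO3 replicate 1 far above them. AT2G32560 (-2.33, SE 0.39) and AT1G64590 (-1.68, SE 0.29) had the same order.

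The response of Col-0 was then compared with the mean response of the other 6 accessions, measured on 36 other arrays. No probe set differed (limma, 0 of 12052, 122 at an unadjusted p under 0.05, and 0 without the 2 libraries with 185). The mean response of the other 6 itself held 146 probe sets (1.21%), 66 higher (0.548%) and 80 lower (0.664%). NIR1 (1.71, SE 0.37, adjusted p = 0.0153), RFNR2 (1.55, adjusted p = 0.0179) and HHO3 (0.92, adjusted p = 0.00602) were the 3 nitrate list genes higher there, and 1, the 6-phosphogluconate dehydrogenase PGD2, was lower (-0.44). NRT2.1 had 1.83 without passing (adjusted p = 0.125). The SE and adjusted p of the mean of the other 6 come from the spread of arrays within groups, not from differences between accessions. Single accessions ran from 0.06 (Var2-1) to 2.68 (NFA-8) in NIR1 and from -0.91 (Var2-1) to 2.53 (NFA-8) in RFNR2. In HHO3 they ran from -0.14 (Ts-5) to 1.75 (Kas-2). Col-0 minus the others was -0.58 (SE 0.99) for NIR1 and -0.09 (SE 1.46) for NRT2.1 on all 42 arrays, and SEs of that size do not show that the responses were alike. Of the 45 probe sets past the threshold on 4 Col-0 arrays, 43 had the same sign in the mean of the other 6, where 52.8% of all probe sets did, and 5 passed there. The arrays of the other accessions took no part in the fit that gave the 45. That fit left out 2 libraries for their values in known nitrate genes. Of the 45, 40 had the pattern of NIR1 or its opposite at 2-fold or more. The 43 are thus not separate observations, and their share is a description. ARR6 (1.39, adjusted p = 0.0693) and AT1G49500 (1.97, adjusted p = 0.0218) passed in the other accessions. AUX1, an auxin influx carrier, passed there in the lower direction (-0.93, adjusted p = 0.00363) beside 0.22 (SE 0.24) in Col-0, and the difference of 1.15 (SE 0.44) did not pass. The values of HSP101 and HSFA2 were 1.16 and 0.99 in the other accessions without passing.

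**Figure D4:**
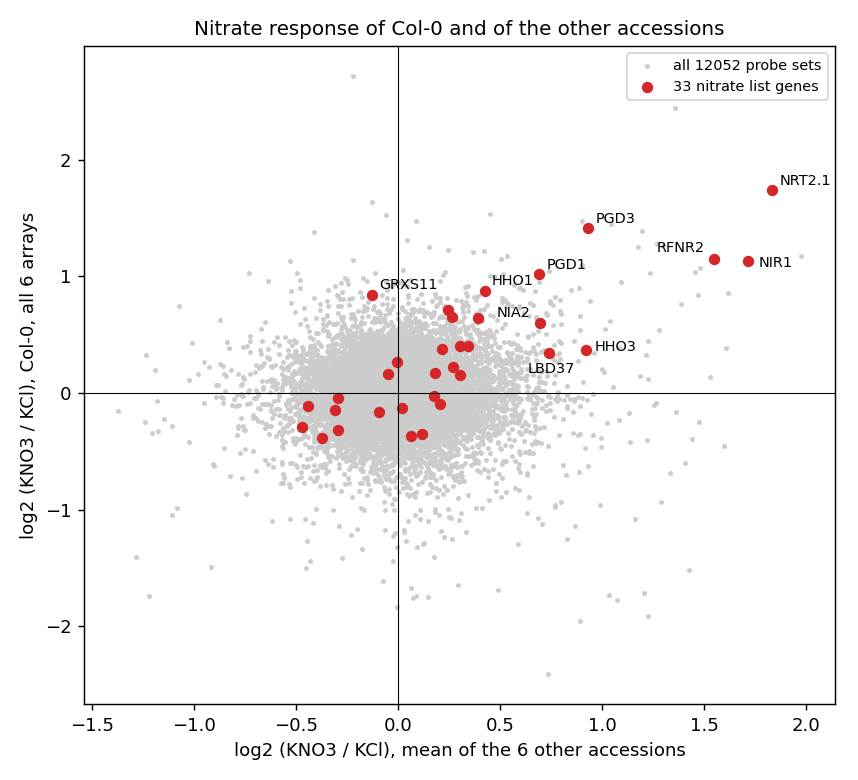
Log2 fold change of KNO3 over KCl in Col-0 on all 6 arrays (vertical axis) against the mean of the other 6 accessions (horizontal axis) for 12052 probe sets (grey) and 33 nitrate list genes (red). NRT2.1, NIR1, RFNR2 and PGD3 lie towards the upper right, with 1.74, 1.13, 1.15 and 1.41 in Col-0.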

How the data were processed

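The authors deposited MAS5 signal intensities for 42 arrays in 1 table, on a linear scale, after dropping probe elements that behaved as outliers in other accessions. The methods name the Affymetrix GCOS software, with no version, and a TAIR10 probe annotation. The deposited lists of dropped elements and the key to probe sets were not used. Control probe sets (64 of 22810) were left out of tests. Signals were tested as log2(signal + 1) with limma 3.58.1 (lmFit and eBayes with a mean-variance trend, R 4.3.3), two-sided, with Benjamini-Hochberg adjustment and a threshold of 0.1. Col-0 was fitted on its 6 arrays, and the comparison with other accessions on 14 group means of 42 arrays. The number of arrays limits the precision. The fit on 6 arrays and the fit on 14 group means were tested on simulated data with independent noise. The fit on 4 arrays and the fits with a replicate block were not.

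A probe set was named where the platform annotation or, failing that, the study's own tables pair it with 1 nuclear gene (14600 of 22746). Genes with several probe sets used the one of highest mean signal. Named were the genes of a list drawn from the study's text, up to 4 genes of smallest p on each of 17 lists and the 10 smallest p. Others are said to be chosen after their values were seen. Members and lists were chosen with earlier results of these data known. One of the study's tables, which named 882 probe sets, holds genes it selected on these arrays, so naming through it favours genes that varied in them. Another, described as listing all probe sets, named 351. Its values did not match the deposited signals under the same probe set names, and only its names were used. Of 1684 names in the study's tables that the annotation also held, 1681 were the same.

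Same-numbered Col-0 arrays deviated together (r = 0.268, 0.279 and 0.249, different numbers -0.29 to 0.0569), so the numbers were taken to pair the samples on this evidence from the data, not from a stated batch. Alternatives were another pseudocount, normalization, filter, spread, threshold or moderation, the replicate block, and leaving out each array. Leaving out KCl replicate 2 with KNO3 replicate 1 was chosen after seeing the data. No sequence or coordinate is given.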

Additional observations from a re-analysis of the deposited data

How the results depend on the processing

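The count of 0 for the Col-0 response held under the 16 alternatives that could have raised it, with 45 to 600 probe sets at an unadjusted p under 0.05 and a lowest adjusted p of 0.132. The 45 are of 12052 probe sets, and the 600 of 22746, with no signal filter. With the replicate number as a block the count was 0 of 12052 (583 at an unadjusted p under 0.05, lowest adjusted p = 0.349), for list genes also 0, and for Col-0 against the others 0. The block changed no call in these comparisons. Without the libraries labelled KCl replicate 2 and KNO3 replicate 1, the count was 45 and 6 list genes passed. With quantile normalization added it was 39, again with 6 list genes. The mean response of the other 6 accessions ran from 98 to 224 probe sets when 1 array was left out, the highest without Ts-5 KCl replicate 2, beside 146. It held 173 with the replicate block, 118 with no signal filter (of 22746 probe sets) and 137 without the 2 Col-0 libraries.

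Fold changes that turned in sign were those of HSP101 and HSFA2 without the 2 libraries (0.21 and 0.49, or 0.26 and 0.44 with quantile normalization), PYK10 under the latter (-0.02), and FD3 with quantile normalization alone (-0.03). Without the 2 libraries NRT1.1, FD3, LBD37, EXPA7 and LHCB4.2 had 0.79, 1.06, 1.61, 0.73 and -1.62. With 1 array left out, log2 fold changes ran from -0.01 to 0.56 for NRT1.1, -0.20 to 0.67 for FD3, -0.15 to 1.02 for LBD37, -1.57 to 0.69 for LHCB4.2, -1.70 to -0.43 for HSP101, -1.56 to 0.04 for HSFA2, -0.02 to 0.59 for EXPA7 and -0.05 to 0.30 for UBQ14. NRT2.1 kept its sign but ran from 0.75 to 3.28, NIR1 from 0.54 to 1.93, RFNR2 from 0.56 to 2.1 and PGD3 from 0.75 to 2.62. The cause was not tested. None of these genes passed the test on the 6 arrays. Fold changes of the other genes named for their Col-0 response kept their sign under every setting run.

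With 3 arrays a group, the count of 0 does not show that responses are absent. Pseudocount and signal minimum limit what can be said of dim probe sets, and genes that the tables used here do not name were not looked up.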
